A study of Mus musculus with 6 samples.

Results

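The cells described here are the chondrocytes of Day 7 digits-in-a-dish (DID) cultures, 5476 cells in all, taken from 18728 Day 7 cells that passed the cell filter and from 54126 such cells in the whole series. They were chosen by measured values. A barcode of a Day 7 library counted as a cell when it held at least 3000 UMIs (unique molecular identifiers, which mark single captured RNA molecules), at most 7500 genes and at most 25% of its UMIs on mitochondrially encoded genes, and it counted as a chondrocyte when *Matn1* and *Snorc* together made up at least 0.3% of its UMIs. All other cells of the same libraries that passed the filter, 13252 in number, served as the comparison. Since the gate was set on the same counts, differences between the chondrocytes and the other cells at Day 7 are given as a description, with no test. Tests were kept for Day 10 against Day 7 and, within the chondrocytes, for cells with an *Ihh* UMI among 3000 drawn UMIs against cells without one. How the difference between the classes changed from Day 7 to Day 10 was fitted too, and since both sides of that fit were gated it stands with this limit.

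The cultures were grown from mouse embryos (CD-1 strain, wild type, stage E11.5), whose distal forelimb mesenchyme was dissected, pooled over embryos, dissociated with trypsin and collagenase and seeded as a dense suspension in medium with serum. Single cells were captured on Day 2, Day 7 and Day 10 after seeding, and 2 independent cultures gave replicates A and B at each time point. The labels give no genetic change or drug for any library. The days differ in time in culture and also in their libraries, which cannot be told apart. Pooled embryos and dissociated mesenchyme limit what a replicate stands for, since A and B are separate cultures and not separate animals.

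Chondrocytes are the cells of cartilage. They differentiate from condensed mesenchyme under the transcription factor SOX9 and its partners SOX5 and SOX6, and they surround themselves with fibrils of type II, IX and XI collagen and with aggrecan, which binds water. In the growing digit they divide, then leave the cell cycle, switch on Indian hedgehog (*Ihh*) and the PTHrP receptor (*Pth1r*), and enlarge into hypertrophic cells that make type X collagen and prepare the matrix for bone. *Matn1* codes for matrilin 1, a filament-forming cartilage matrix protein, and *Snorc* for a small transmembrane proteoglycan of chondrocytes.

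On GRCm38, *Matn1* (ENSMUSG00000040533) lies on the plus strand of chromosome 4 from 130944385 to 130955475, *Snorc* (ENSMUSG00000026258) on the plus strand of chromosome 1 from 87470271 to 87475482, *Scrg1* (ENSMUSG00000031610) on the plus strand of chromosome 8 from 57455923 to 57477585, and *Ihh* (ENSMUSG00000006538) on the minus strand of chromosome 1 from 74945315 to 74951672. *Epyc* (ENSMUSG00000019936), which had the highest ratio to the other cells among genes at 100 CPM (counts per 1e+06 UMIs) or more, lies on the plus strand of chromosome 10 from 97644068 to 97682454. Of 13 genes, namely the 4 markers and the genes that led the comparison at Day 7, 9 had an entry in the RefSeq promoter table for GRCm38.p6, with 10 start sites between them, and *Snorc*, *Scrg1*, *Comp* and *Col9a3* had none. The 250 bases before the start are shown for *Matn1*, which set the gate, and for both start sites of *Epyc*. They were searched on both strands for the letters ACAAAG and ACAATG, words of the kind that SOX proteins bind, and matches are in capitals, so that CATTGT is ACAATG read on the other strand. The windows are chr4:130944135-130944384, chr10:97643818-97644067 and chr10:97646853-97647102, all on the plus strand.
Matn1: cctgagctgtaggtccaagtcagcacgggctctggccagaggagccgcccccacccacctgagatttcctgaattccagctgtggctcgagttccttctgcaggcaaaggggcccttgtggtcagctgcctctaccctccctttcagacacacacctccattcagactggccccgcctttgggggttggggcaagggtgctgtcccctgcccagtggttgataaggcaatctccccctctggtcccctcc
Epyc, first start: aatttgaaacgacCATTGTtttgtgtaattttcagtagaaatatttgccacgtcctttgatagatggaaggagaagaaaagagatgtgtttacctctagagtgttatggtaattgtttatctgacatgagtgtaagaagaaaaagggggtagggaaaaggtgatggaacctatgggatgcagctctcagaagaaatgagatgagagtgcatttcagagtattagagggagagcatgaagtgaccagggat
Epyc, second start: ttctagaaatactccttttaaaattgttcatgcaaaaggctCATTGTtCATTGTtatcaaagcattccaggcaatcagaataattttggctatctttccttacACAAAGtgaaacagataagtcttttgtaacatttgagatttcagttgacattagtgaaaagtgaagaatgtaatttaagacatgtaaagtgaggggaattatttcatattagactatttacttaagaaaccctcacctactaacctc
Among the 10 windows only the 2 of *Epyc* held either word, against 25.2% of all 32851 windows of this length in the table (16.5% for ACAAAG and 10.7% for ACAATG). A match is a run of letters and not a measured binding site, and the window of *Matn1* is shown without capitals because neither word is in it.

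The chondrocytes made up 30.6% of the Day 7 cells of replicate A (2860 of 9355 cells, exact binomial 95% interval 29.6% to 31.5%) and 27.9% of those of replicate B (2616 of 9373, 27.0% to 28.8%). Intervals of this kind cover counting error only. At this filter and gate the 2 intervals do not overlap, and whether the cultures differ in this share was not tested. Under the same gate, Day 10 libraries held 1429 and 1484 such cells (17.1% and 17.8%), and Day 2 libraries held 0 of 8949 and 0 of 9742 cells, which, taking 3 cells as the limit that a count of 0 allows, leaves a share of up to 0.0335% and 0.0308%. The highest share of *Matn1* and *Snorc* UMIs in any Day 2 cell was 0.183% in replicate A and 0.166% in replicate B. The paper annotated several Day 2 clusters as chondrocytes, by markers that include *Col2a1*, *Acan*, *Matn1* and *Snorc*. The count of 0 thus holds for this gate and not for chondrocytes as the paper defined them. The share at Day 7 depends on where the gate stands. At 0.5% of UMIs it was 19.8% and 17.9%, and at 0.2% it was 36.1% and 33.1%. With the cell limits of the study it was 22.0% and 21.3%, so the gap between the cultures varied as well.

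The gate cut a continuous range of values and not a gap. Within the chondrocytes the share of *Matn1* and *Snorc* UMIs had a median of 0.587% in replicate A and 0.591% in replicate B, with 5% of cells under 0.326% and 0.327% and 5% over 1.17% and 1.15%. In the plot of cells by their gate share, the number of cells per bin changed little across the gate. Cells just inside, from 0.3% to 0.35%, numbered 269 in replicate A and 230 in replicate B, and cells just outside, from 0.25% to 0.3%, numbered 247 and 248. The inside cells had *Col2a1* at 13679 and 13029 CPM, a gene's UMIs summed over the cells and divided by the sum of all their UMIs, and the outside cells at 12800 and 12578. For *Ihh* the same pairs were 29.1 and 31.5 CPM inside against 18.6 and 17.9 CPM outside.

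**Figure D1:**
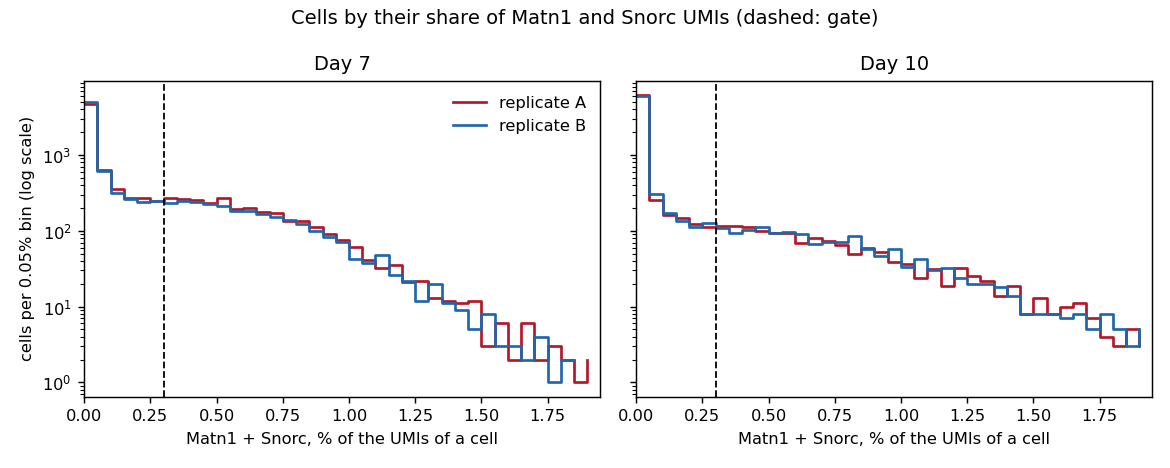
Number of cells (log scale) per bin of 0.05% by the percentage of a cell's UMIs on Matn1 and Snorc, for Day 7 (left) and Day 10 (right), replicate A in red and replicate B in blue, without the last bin, which gathers all higher shares. The dashed line is the gate at 0.3%. The 2 replicates run together, and at Day 7 the bins on either side of the gate hold between 230 and 269 cells.

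Depth differed between the classes. The median chondrocyte held 26447.5 UMIs in replicate A and 26918 in replicate B, and the median other cell 15424 and 13410. Ribosomal protein genes took a median of 29.7% and 30.5% of the UMIs of the chondrocytes against 22.9% and 23.1% in the other cells, and mitochondrially encoded genes 2.69% and 2.55% against 3.25% and 3.12%. The summed UMIs behind the levels below were 79379236 and 74325268 for the chondrocytes and 128675594 and 126485470 for the other cells, so counting error is small for all but the lowest genes. The 2 libraries set the spread of the Day 7 ratios, which also moved with the scaling and with the cells compared. Doublets were not called. Between any 2 of the 6 libraries, at most 0.715% of the barcodes of the smaller library were shared.

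Levels of the 2 markers outside the gate are given as a description. They were chosen with earlier results of these data known and do not test the label. *Scrg1*, a small secreted protein of cartilage, stood at 271 and 273 CPM in the chondrocytes of replicates A and B and at 25.7 and 26.4 CPM in the other cells. *Ihh* stood at 32.4 and 35.4 CPM against 4.79 and 4.55 CPM. To compare shares of cells at one depth, every cell was thinned to 3000 UMIs. A *Scrg1* UMI was then present in 42.9% and 45.1% of the chondrocytes and in 5.67% and 5.68% of the other cells (78.8% and 81.9% against 18.04% and 17.8% before thinning), and an *Ihh* UMI in 6.26% and 7.57% against 1.37% and 1.11% (28.4% and 30.8% against 5.11% and 4.54%). Both markers were thus higher in the gated cells in each replicate, and most gated cells lacked an *Ihh* UMI at that depth. The other cells were not free of the gate genes, with a *Matn1* UMI in 39.1% and 36.2% of them after thinning.

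Over all genes, 180 of the 8014 genes that reached 10 CPM in a class in both libraries were at least 2-fold higher in the chondrocytes in both replicates (2.25%), and 872 were at least 2-fold lower (10.9%). Ratios were taken on CPM + 1. The median gene had a log2 ratio of -0.23. With TMM factors, which rescale each class so that most genes centre on no difference, the median was 0.04 and the counts were 318 higher and 572 lower, so that 35.7% rather than 17.1% of the genes past the fold were higher. The ratios below are without TMM factors.

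The fibril collagens of cartilage were higher in the chondrocytes throughout, 7 of 7 listed genes, with a median log2 ratio of 2.22 against -0.23 over all genes and the 2.25% of genes past this fold. *Col2a1*, which codes for the main fibril chain, stood at 16873.5 and 16398.5 CPM in replicates A and B, against 3741 and 3151 CPM in the other cells, log2 ratios of 2.17 and 2.38. *Col9a3*, a chain of the type IX collagen that decorates these fibrils, stood at 3712 and 3738 CPM against 687 and 628 CPM. *Col11a1*, a chain of the type XI collagen that sets fibril width, stood at 7437 and 7043 CPM against 2258 and 2056 CPM. For each of the 3 genes both chondrocyte values lay above both values of the other cells, and the replicates of a class lay closer together than the classes. The smallest ratio of the list was that of *Col27a1*, a fibril collagen of the growth plate, at 572 and 535 CPM against 187 and 201 CPM.

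Of 12 measured genes of the aggrecan, matrilin and link protein list, 7 were at least 2-fold higher and 2 at least 2-fold lower, where 2.25% and 10.9% of all genes were. *Epyc*, which codes for epiphycan, a small leucine-rich proteoglycan of growth cartilage, came first among genes at 100 CPM or more, with 344 and 342 CPM against 22.2 and 21.5 CPM, a ratio of 15.1 on average. *Acan*, the aggrecan core protein, stood at 2059 and 1951 CPM against 421 and 379 CPM, and *Hapln1*, the link protein that ties aggrecan to hyaluronan, at 1639 and 1609 CPM against 344 and 328 CPM. *Comp*, a pentameric matrix protein, stood at 976 and 920 CPM against 162 and 144 CPM. The matrilins did not move together. *Matn3* had 230 CPM in both replicates against 38.3 and 34.1 CPM, a ratio of 6.22, whereas *Matn4* stood at 365 and 343 CPM against 340 and 329 CPM, log2 ratios of 0.10 and 0.06. The 2 lower genes were *Col6a1* and *Col6a2*, chains of the beaded type VI collagen, at 77.4 and 71.1 CPM against 187 CPM in both replicates and at 39.7 and 37.0 CPM against 118 and 122 CPM.

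Among the small cartilage proteins, 7 of 10 measured genes were at least 2-fold higher, against 2.25% of all genes, and 0 lower. *Cnmd*, which codes for chondromodulin, an inhibitor of vessel growth in cartilage, stood at 1036 and 987 CPM against 170 and 162 CPM. *Mia*, a small secreted protein also known as CD-RAP, stood at 2079 and 2156 CPM against 380 and 379 CPM, and *S100b*, a calcium-binding protein, at 292 and 306 CPM against 52.5 and 50.9 CPM. *Ucma*, a vitamin K-dependent protein of the upper zone of growth cartilage, was lower in level, with 83.1 and 94.6 CPM against 18.1 and 22.4 CPM. *C1qtnf3*, also called cartducin, was among the leading genes outside the lists at 120 and 123 CPM against 11.8 and 14.2 CPM. The median log2 ratio of these 10 proteins was 1.92, and *Itm2a*, at 133 and 119 CPM against 111 and 103 CPM, did not reach the fold.

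The transcription factors separated the classes less than the matrix genes. Of 10 measured factors 3 were at least 2-fold higher, *Sox9*, *Foxa3* and *Runx3*, and 1 at least 2-fold lower, *Trps1*. Over all genes these shares were 2.25% and 10.9%, so the lower count is at the background. *Sox9* stood at 418 and 420 CPM against 207 and 200 CPM, log2 ratios of 1.01 and 1.07, just over the fold. Its partners *Sox5* (85.3 and 81.3 CPM against 70.2 and 72.3 CPM) and *Sox6* (86.7 and 80.1 CPM against 47.0 and 53.7 CPM) stayed under it. *Runx2*, the factor of hypertrophy and bone, was close in the 2 classes, at 45.3 and 41.1 CPM against 43.3 and 43.6 CPM, while *Runx3* stood at 16.8 and 17.2 CPM against 6.46 and 6.27 CPM. *Foxa3*, a forkhead factor, stood at 29.2 and 29.7 CPM against 4.53 and 4.39 CPM.

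**Figure D2:**
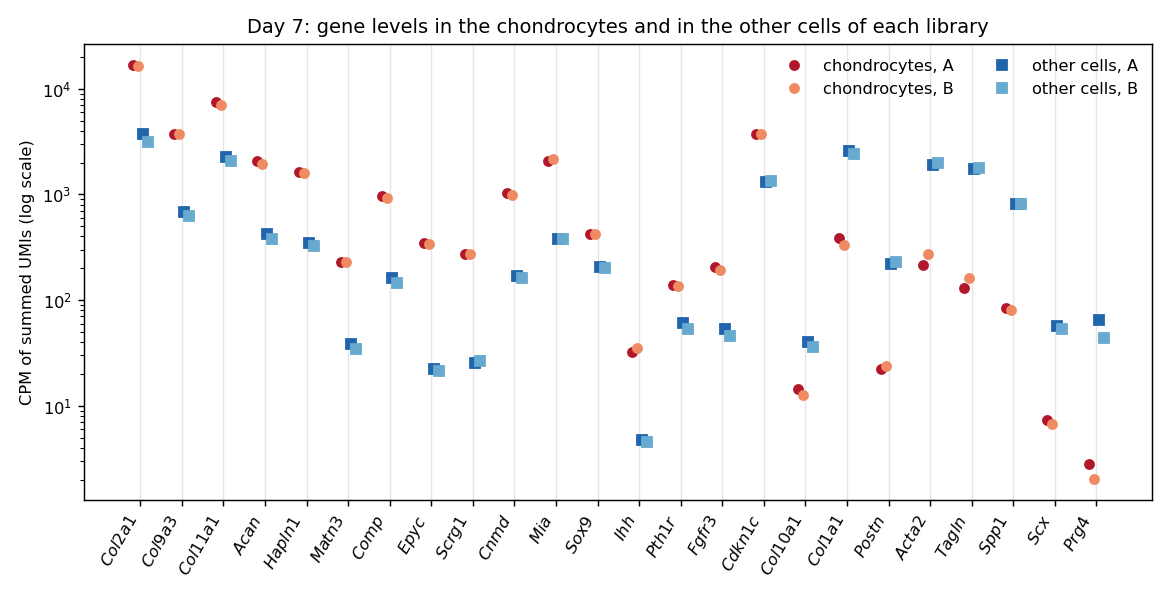
Level in CPM of summed UMIs (log scale) of 24 genes at Day 7, with circles for the chondrocytes and squares for the other cells, and the darker shade for replicate A. Cartilage genes from Col2a1 (16873.5 against 3741 CPM in replicate A) to Fgfr3 sit higher in the chondrocytes, genes from Col10a1 to Prg4 sit higher in the other cells, and replicates lie close together.

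Of 7 measured hedgehog and PTHrP genes, *Ihh*, the ligand, and *Pth1r*, the PTHrP receptor, were at least 2-fold higher, and *Gli3*, a hedgehog-regulated transcription factor, and *Hhip*, a hedgehog-binding protein, at least 2-fold lower (2.25% and 10.9% of all genes). *Pth1r* stood at 138 and 136 CPM against 60.5 and 53.5 CPM. *Hhip* stood at 6.01 and 6.39 CPM against 24.5 and 27.3 CPM, and *Ptch1*, the hedgehog receptor and a known target of the pathway, at 55.3 and 49.0 CPM against 72.5 and 74.5 CPM. *Pthlh*, the PTHrP ligand, was low in both, at 0.605 and 0.834 CPM in the chondrocytes and 2.51 and 3.47 CPM in the other cells.

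Of 10 listed hypertrophy genes 5 reached the minimum level at Day 7, of which 1 was at least 2-fold higher and 2 lower, beside 2.25% and 10.9% of all genes. The higher gene was *Panx3*, a channel protein of prehypertrophic and hypertrophic cells, at 93.2 and 82.1 CPM against 20.4 and 18.3 CPM. *Col10a1*, the type X collagen of hypertrophic cells, stood at 14.3 and 12.8 CPM against 40.5 and 35.9 CPM. After thinning, a *Col10a1* UMI was found in 2.97% and 1.99% of the chondrocytes and in 4.51% and 2.93% of the other cells (13.2% and 9.56% against 11.7% and 8.01% before), so the share in the gated cells was no higher than in the other cells at equal depth. *Spp1*, which codes for osteopontin, stood at 83.5 and 80.1 CPM against 806 and 810 CPM. *Ibsp*, the bone sialoprotein gene, was at 3.70 and 3.24 CPM and *Mmp13*, a collagenase, at 0.504 and 1.28 CPM in the chondrocytes.

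Growth factor genes passed the fold in small numbers, and the lower counts of the FGF and BMP lists were near the 10.9% of all genes that were lower. The higher shares of these lists were above the 2.25% of all genes that were higher, and the WNT list had 1 such gene. *Fgfr3*, the FGF receptor that restrains growth plate cells, stood at 208 and 193 CPM against 53.5 and 46.0 CPM, whereas *Fgfr1* stood at 65.7 and 60.6 CPM against 110 and 106 CPM. In that list 2 of 8 measured genes were at least 2-fold higher, the other being *Fgfr4*, and 1 lower, *Dusp6*, a feedback phosphatase. In the BMP list 2 of 13 were higher, the antagonist *Nog* (64.1 and 67.5 CPM against 31.5 and 30.003 CPM) and the ligand *Bmp7*, and 2 lower, the ligand *Bmp4* (7.87 and 7.72 CPM against 64.9 and 65.1 CPM) and the antagonist *Grem1*. In the WNT list 1 of 8 was higher, the antagonist *Frzb*, at 89.9 and 87.2 CPM against 34.0 and 29.7 CPM, and 4 were lower, *Sfrp2*, *Wif1*, *Dkk2* and *Dkk3*.

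The enzymes that build chondroitin sulfate chains had 7 of 19 measured genes at least 2-fold higher (2.25% of all genes) and 0 lower (10.9%), with a median log2 ratio of 0.56. They began with *Xylt1* (131 and 117 CPM against 47.3 and 47.0 CPM), which starts the chain on its core protein, and *Csgalnact1* (139 and 128 CPM against 33.5 and 32.4 CPM), which starts the chondroitin repeat. *Chst11*, a chondroitin sulfotransferase, stood at 93.7 and 83.2 CPM against 21.5 and 18.7 CPM. The sulfate supply was on the same side, with *Papss2*, which makes the activated sulfate, at 224 and 205 CPM against 59.2 and 53.6 CPM, and *Slc26a2*, the sulfate transporter, at 134 and 125 CPM against 41.2 and 37.7 CPM. *Chsy1*, *Chsy3* and *Chpf*, subunits of the polymerase, did not reach the fold, with *Chsy1* at 41.2 and 40.2 CPM against 45.9 and 42.4 CPM.

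Of 20 measured genes for collagen modification and secretion, 3 were at least 2-fold higher and 0 lower, beside 2.25% and 10.9% of all genes. These were the prolyl hydroxylase subunits *P4ha1* (608 and 578 CPM against 294 and 285 CPM) and *P4ha2* (300 and 307 CPM against 103 and 109 CPM) and the lysyl hydroxylase *Plod2* (487 and 465 CPM against 166 and 150 CPM). Glycolysis and hypoxia genes had 2 of 17 higher and 0 lower, *Pgk1*, a glycolytic kinase, at 1079 and 1177 CPM against 510 and 557 CPM, and *Bnip3*, a mitochondrial protein induced by low oxygen, at 374 and 413 CPM against 138 and 160 CPM. The median log2 ratio was 0.45 for the first list and 0.60 for the second, both above the -0.23 over all genes.

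The 20 cell cycle genes had a median log2 ratio of -0.80 against -0.23 over all genes, and 1 of them, *Rrm2*, a smaller share than the 10.9% of all genes, passed the fold downward (15.0 and 14.6 CPM against 46.1 and 43.8 CPM). *Cdkn1c*, which codes for the p57 inhibitor of cyclin-dependent kinases, passed it upward at 3696 and 3759 CPM against 1320 and 1343 CPM. *Top2a*, a topoisomerase of dividing cells, stood at 82.2 and 89.0 CPM against 168 and 156 CPM. After thinning, a UMI of *Top2a* or *Mki67* was found in 13.6% and 12.3% of the chondrocytes (95% intervals 12.4% to 14.9% and 11.04% to 13.6%) and in 23.3% and 19.9% of the other cells (40.3% and 35.8% against 43.0% and 37.7% before thinning). The share was lower in the chondrocytes than in the other cells in both replicates, and the part of RNA from other cells in it was not tested.

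Lists of fibrous, contractile, tendon and joint genes had more lower members than the 10.9% over all genes. All 8 genes of the contractile list were at least 2-fold lower, led by *Tagln*, an actin-binding protein of smooth muscle, at 129 and 164 CPM against 1754 and 1770 CPM. Of 14 fibrous genes 11 were lower, among them *Col1a1*, the main collagen of fibrous tissue and bone, at 390 and 329 CPM against 2595 and 2434 CPM, and *Postn*, periostin, at 22.4 and 23.9 CPM against 218 and 230 CPM. One of that list, *Dcn*, the small proteoglycan decorin, was at least 2-fold higher, at 217 and 240 CPM against 71.6 and 71.7 CPM. The tendon list had 4 of 5 measured genes lower, with *Scx*, the tendon transcription factor, at 7.27 and 6.75 CPM against 57.3 and 53.8 CPM, and the joint list 5 of 7, with *Prg4*, lubricin, at 2.81 and 2.02 CPM against 64.2 and 43.4 CPM. *Ptn*, *S100a6*, *S100a4*, *Tmsb4x*, *Lgals1*, *Basp1*, *Col8a1*, *Cnn1* and *Foxp1* completed the lowest genes, each between 8.35-fold and 11.6-fold lower.

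Markers of other cell types were low in the gated cells but not all at 0. The 7 muscle genes summed to 13.6 and 3.11 CPM against 78.2 and 25.4 CPM in the other cells, so replicate A held more of this RNA in both classes. The 8 macrophage and osteoclast genes summed to 26.9 and 26.7 CPM against 67.1 and 88.6 CPM, and the defining markers *C1qa* and *Tyrobp* stood at 0.265 and 0.229 CPM and at 0.617 and 0.861 CPM in the chondrocytes. The 5 endothelial genes summed to 0.466 and 0.592 CPM with *Cdh5* and *Emcn* at 0, and of 4 erythroid genes 3 were at 0. The 14 fibrous genes summed to 2904 and 2669 CPM against 9445 and 8813 CPM, and the 8 contractile genes to 1267 and 1391 CPM against 8998 and 9098 CPM. Whether RNA from neighbouring cells, carried free in the droplets or in doublets, contributes to these levels was not tested. Of 9 measured genes that respond to dissociation 6 were at least 2-fold lower in the chondrocytes, against 10.9% of all genes, with *Fos* at 160 and 155 CPM against 384 and 433 CPM.

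Among themselves the chondrocytes varied along the gate share. They were split into 3 classes, from 0.3% to 0.5% (1012 and 942 cells), from 0.5% to 0.8% (1144 and 1039 cells) and 0.8% or more (704 and 635 cells), whose median depths were 24782, 28062.5 and 26532 UMIs in replicate A and 26636, 28270 and 25143 in replicate B. Since the classes were cut on 2 cartilage genes, what follows is a description. *Epyc* went from 172 and 169 CPM in the lowest class to 326 and 342 CPM in the middle one and to 623 and 620 CPM in the highest. *Scrg1* went from 180 and 171 CPM to 414 and 405 CPM, and *Col2a1* from 14377 and 13967 CPM to 20688 and 20033 CPM. *Sox9* changed little, from 399 and 406 CPM to 437 CPM in both replicates, as did *Wwp2*, which codes for a ubiquitin ligase and holds the cartilage microRNA *Mir140* in an intron, from 480 and 458 CPM to 466 and 443 CPM. *Top2a* stood at 87.8 and 95.1 CPM in the lowest and 74.0 and 83.6 CPM in the highest class. *Col1a1* went the other way, from 566 and 507 CPM to 244 and 164 CPM. The plot by gate share shows matrix genes that climbed with the gate genes on one side. On the other are genes that stayed level or declined, apart from *Ihh*. That gene climbed from 26.4 and 31.2 CPM in the lowest class to 37.8 and 39.6 CPM in the highest.

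**Figure D3:**
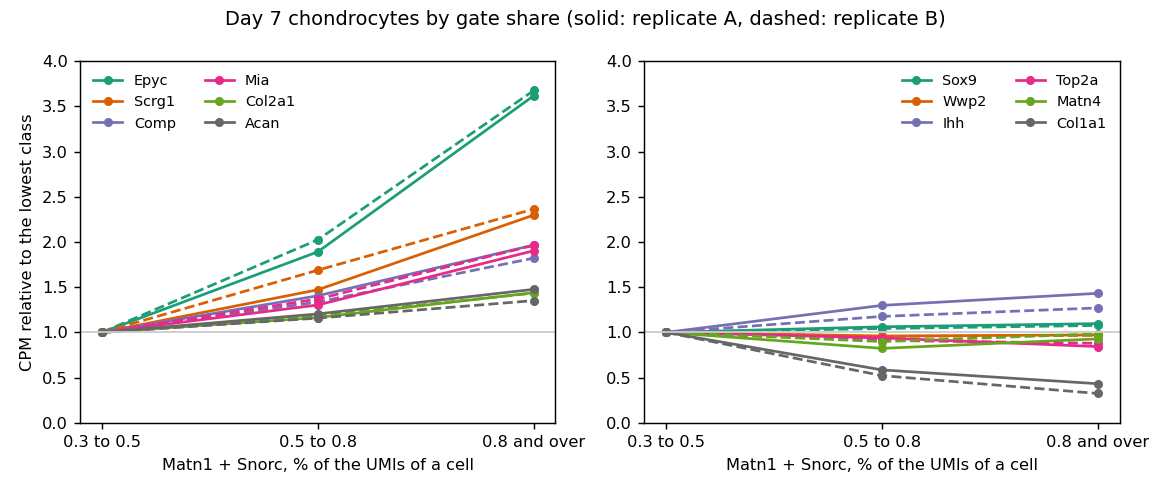
CPM in 3 classes of Day 7 chondrocytes by gate share, relative to the lowest class (1 on the axis), solid lines for replicate A and dashed lines for replicate B. Epyc reaches 623 and 620 CPM in the highest class from 172 and 169 CPM in the lowest, Sox9 and Wwp2 stay near 1, and Col1a1 declines.

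Within the Day 7 chondrocytes, cells with an *Ihh* UMI after thinning were compared with cells without one. There were 179 with and 2681 without in replicate A, and 198 and 2418 in replicate B. The class without *Ihh* holds cells with an *Ihh* UMI at full depth, since 28.4% and 30.8% of the chondrocytes had one before thinning. UMIs were summed per class and library, the Day 10 sums shared the estimate of the spread, and the library was a term of the fit (edgeR's quasi-likelihood test with Benjamini-Hochberg adjustment over 14074 genes). The cells with *Ihh* were deeper, with medians of 32291 and 31595.5 UMIs against 25994 and 26507.5, and the part of depth in the results was not tested. In these classes 358 genes were higher (2.54%) and 286 lower (2.03%) at an adjusted p under 0.05. Those counts rest on both Day 7 replicates, since without replicate A they were 46 and 57 and without replicate B 72 and 82.

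The genes that were higher beside *Ihh* included the channel gene *Panx3*, at 188 and 171 CPM in cells with *Ihh* against 85.2 and 73.6 CPM in cells without (log2 fold change 1.19, standard error 0.05, edgeR adjusted p = 7.2e-09). *Smpd3*, a sphingomyelinase needed for cartilage maturation and mineralization, stood at 165 and 156 CPM against 81.9 and 76.5 CPM (1.03, standard error 0.04, edgeR adjusted p = 7.2e-09). *Pth1r* stood at 217 and 210 CPM against 131 and 129 CPM (0.73, standard error 0.05, edgeR adjusted p = 6.7e-07). For these 3 genes both cultures gave nearly the same ratio, and the call held under every alternative run. *Sp7*, the osteoblast factor osterix, was low but higher in cells with *Ihh*, at 14.9 and 17.5 CPM against 7.82 and 7.49 CPM (1.09, standard error 0.12, edgeR adjusted p = 0.00015). *Mef2c*, a factor that drives hypertrophy, had 218 and 211 CPM against 165 and 154 CPM (0.44, edgeR adjusted p = 5.9e-05), and *Gdf10*, a BMP-family ligand, 32.7 and 28.4 CPM against 17.5 and 14.6 CPM (0.94, edgeR adjusted p = 0.00019). *Tnfaip2*, *Sparcl1*, *Nim1k*, *Ccdc80*, *Sgms2* and *Smim5* completed the 10 largest, with log2 fold changes from 0.75 to 1.05. The largest of the 10 was *Col10a1*, at 45.5 CPM against 11.8 CPM in replicate A and 21.5 CPM against 11.9 CPM in replicate B, and its call depended on replicate A (1.49, standard error 0.20, edgeR adjusted p = 0.00043, and 0.85 with an edgeR adjusted p of 0.10 without that replicate).

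In the other direction, *Ucma* stood at 46.3 and 34.6 CPM in cells with *Ihh* against 86.2 and 100 CPM in cells without (log2 fold change -1.19, standard error 0.10, edgeR adjusted p = 1.4e-05), and *Car9*, a carbonic anhydrase induced by low oxygen, at 12.9 and 11.04 CPM against 24.4 and 27.0 CPM (-1.09, edgeR adjusted p = 8.0e-05). Both held under every alternative run. The other 8 of the 10 largest were genes of chromosome division and histones, *Prc1*, *Hist1h1b*, *Hmmr*, *Tpx2*, *Birc5*, *Hist1h2ap*, *Top2a* and *Cdca8*, with log2 fold changes from -1.05 to -0.77. Most of these calls did not hold without 1 of the replicates, though *Tpx2* did under every alternative run. With *Ihh* taken from all UMIs of a cell, *Hist1h2ap* and, from the cell cycle list, *Rrm2* turned direction. *Top2a*, at 42.5 and 59.9 CPM against 85.5 and 91.8 CPM, had an edgeR adjusted p of 0.014, which was 0.38 without replicate A and 0.095 without replicate B. Each of *Prc1*, *Hmmr*, *Birc5* and *Cdca8* also missed the threshold without either replicate. Of the cell cycle list as a whole 4 of 20 genes were lower, against 2.03% of all genes, and 1 was higher, against 2.54%. The higher gene was *Cdkn1c* (4529 and 4435 CPM against 3627 and 3694 CPM, log2 fold change 0.31).

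By list, 4 of 10 hypertrophy genes were higher in cells with *Ihh* (median log2 fold change 0.53), where 2.54% of all genes were higher and 2.03% lower, namely *Col10a1*, *Panx3*, *Sp7* and *Alpl*. *Col2a1* stood at 16437.5 and 16812.5 CPM against 16909.8 and 16358.6 CPM (log2 fold change 0.01, standard error 0.02), and *Sox9* at 422 and 457 CPM against 418 and 417 CPM (0.09, standard error 0.04), neither past the test. *Fgfr3* was higher, at 254 and 259 CPM against 204 and 187 CPM (0.41, edgeR adjusted p = 0.00015). Of 11 dissociation genes 7 were lower, *Btg2* most (-0.75, edgeR adjusted p = 0.00019), and of 14 fibrous genes 5 were lower and 1 higher, with *Col3a1* at 93.1 and 76.0 CPM against 131 and 109 CPM (-0.50, edgeR adjusted p = 8.0e-05). The part of the dissociation response in the other differences was not tested.

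**Figure D4:**
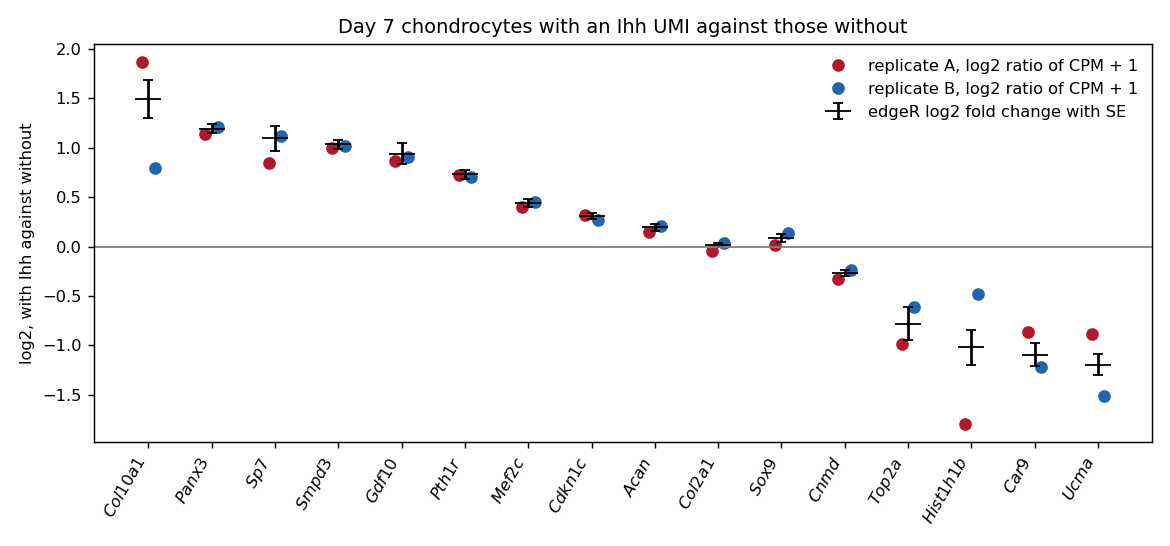
Log2 difference between Day 7 chondrocytes with and without an Ihh UMI for 16 genes. Points are the log2 ratios of CPM + 1 in replicate A (red) and B (blue), and the black bar is the edgeR log2 fold change with its standard error; Panx3 (1.19) and Pth1r (0.73) have closely placed replicates, whereas those of Col10a1 and Hist1h1b lie far apart.

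Day 7 chondrocytes were set against the 2913 Day 10 cells under the same gate, with UMIs summed per library and edgeR's quasi-likelihood test with Benjamini-Hochberg adjustment over 15282 genes. *Matn1* and *Snorc* were left untested because they set the gate, whose median share was 0.661% and 0.679% at Day 10. From Day 7 to Day 10, 3332 genes rose (21.8%) and 3390 fell (22.2%). *Gm42418*, a gene model that overlaps ribosomal RNA sequence, went from 19963 and 18642 CPM to 2666 and 2479 CPM in the chondrocytes and from a mean of 33092 to 2296 CPM in the other cells, and *Gm10076* and *Gstp1*, genes with near-identical copies, differed more than 2-fold between the Day 10 replicates (762 and 162 CPM, and 22.6 and 4.66 CPM). *Gstp1* missed the threshold with DESeq2 (adjusted p = 0.11). The part of such differences in the results was not tested.

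Genes of hypertrophy and mineralization rose most. *Ibsp* went from 3.70 and 3.24 CPM to 344 and 288 CPM (log2 fold change 6.45, standard error 0.10, edgeR adjusted p = 5.2e-15), *Alpl*, the alkaline phosphatase of mineralizing tissue, from 13.0 and 9.31 CPM to 166 and 152 CPM (3.78, standard error 0.10, edgeR adjusted p = 2.3e-12), and *Col10a1* from 14.3 and 12.8 CPM to 427 and 183 CPM (4.44, standard error 0.28, edgeR adjusted p = 1.5e-08). The Day 10 replicates differed in *Col10a1*, and without cells that had 0.1% or more of their UMIs on it the change was 2.03. Since those cells were chosen on *Col10a1* itself, this value is a description. Of 10 hypertrophy genes 8 rose and the other 2 did not pass the test (median log2 fold change 1.94), and of 8 bone matrix genes, which share *Ibsp*, *Alpl* and *Sp7* with that list, 7 rose, while 21.8% of all genes did. Other cells moved too, *Ibsp* from a mean of 4.45 to 704 CPM, and the 8 bone matrix genes summed to 2627 and 2468 CPM at Day 7 and 4641 and 4546 CPM at Day 10 there, against 417 and 351 CPM and 1184 and 1109 CPM in the chondrocytes. Whether RNA of those cells adds to the chondrocyte values was not tested. *Sgms2*, *Smpd3*, *Ccdc80*, *Cdsn* and *Omd* were also among the 10 largest, with log2 fold changes from 1.86 to 3.97.

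*Ihh* and *Pth1r* rose together. *Ihh* went from 32.4 and 35.4 CPM to 118 and 116 CPM (log2 fold change 1.73, standard error 0.06, edgeR adjusted p = 2.5e-11), and after thinning the share of cells with an *Ihh* UMI was 17.98% and 18.4% at Day 10 (48.5% and 49.0% before), with 1.53% and 1.64% in the other cells. *Pth1r* went from 138 and 136 CPM to 566 and 532 CPM (1.95, standard error 0.06, edgeR adjusted p = 6.1e-12). *Ptch1* rose from 55.3 and 49.0 CPM to 116 and 117 CPM (1.11, edgeR adjusted p = 1.5e-09), *Gli2* fell (log2 fold change -1.18, edgeR adjusted p = 2.0e-07), and *Gli1* stood at 3.67 and 3.44 CPM and 3.88 and 4.26 CPM, a change that did not pass the test. In all, 3 of 11 genes of the hedgehog and PTHrP list rose and 3 fell, shares near the 21.8% and 22.2% over all genes. *Panx3* (1.72) and *Sp7* (2.06) rose as well.

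The gate chose the cells of both days on cartilage genes, many matrix genes climbed with the gate share, and its median was higher at Day 10. In the class from 0.3% to 0.5% alone, *Comp* stood at 697 and 695 CPM at Day 7 and 2334 and 1904 CPM at Day 10, *Epyc* at 172 and 169 CPM and 67.8 and 64.4 CPM, and *Matn3* at 171 and 173 CPM and 198 and 148 CPM. The days did not overlap there for *Comp* and *Epyc*, nor for *Acan*, *Hapln1*, *Col2a1*, *Scrg1* and *Mia*, and overlapped for *Matn3* and *Col9a1*. In that class *Col11a1* went from 6419 and 6163 CPM to 5238 and 4736 CPM. *Col9a3* went from 2987 and 2997 CPM to 2793 and 2401 CPM, while *Col2a1* and *Col27a1* were higher at Day 10. *Ihh* went in the same class from 26.4 and 31.2 CPM to 95.7 and 98.4 CPM, and *Pth1r* from 128 CPM in both replicates to 471 and 462 CPM. *Col10a1* went there from 11.1 and 15.2 CPM to 175 and 101 CPM, and *Top2a* from 87.8 and 95.1 CPM to 37.6 and 40.5 CPM. For genes not followed by class the part of the gate was not tested. Over the whole gate, 12 of 14 tested genes of the aggrecan, matrilin and link protein list rose and 2 fell, beside 21.8% and 22.2% of all genes. *Comp* rose most among the abundant ones, to 3187 and 2887 CPM (log2 fold change 1.63, standard error 0.06, edgeR adjusted p = 1.0e-10), and *Acan* rose to 2936 and 2511 CPM (0.39, standard error 0.07, edgeR adjusted p = 0.00045). The 2 that fell were *Epyc*, to 162 and 174 CPM (-1.08, standard error 0.06, edgeR adjusted p = 1.9e-09), and *Chad*, the cartilage cell-binding protein chondroadherin, to 57.8 and 57.5 CPM (-0.69, edgeR adjusted p = 9.5e-08). Of 12 small cartilage proteins 7 fell and 1, *Ostn*, rose. *Scrg1* fell to 156 and 172 CPM (-0.78, standard error 0.06, edgeR adjusted p = 8.5e-08), *Mia* to 1547 and 1652 CPM (-0.46, edgeR adjusted p = 2.8e-05), and *Cytl1*, a small secreted cytokine-like protein, to 53.0 and 55.3 CPM from 131 and 125 CPM (-1.30, edgeR adjusted p = 1.0e-10). The fibril collagens moved little, 3 up, 1 down and 3 not past the test, with *Col2a1* at 22299 and 20618 CPM (0.31, edgeR adjusted p = 0.00062).

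Of 20 cell cycle genes 18 fell, against 22.2% of all genes, and *Ccnd1* and *Cdkn1a* were the 2 that rose. *Top2a* went from 82.2 and 89.0 CPM to 28.7 and 38.3 CPM (log2 fold change -1.41, standard error 0.09, edgeR adjusted p = 3.1e-08), and a UMI of *Top2a* or *Mki67* was found in 6.37% and 7.61% of thinned Day 10 chondrocytes (28.0% and 26.8% before thinning), against 15.3% and 16.2% of the other cells. *Cdkn1a*, the p21 inhibitor, went from 272 and 260 CPM to 582 and 633 CPM (1.14, edgeR adjusted p = 1.9e-09), while *Cdkn1c* fell to 2953 and 3132 CPM (-0.35, edgeR adjusted p = 0.00026). Among the 10 largest falls were the histone genes *Hist1h2ap*, *Hist1h4d*, *Hist1h1b* and *Hist1h1e*, together with *Stmn1*, *Lars2* and the genes with near-identical copies named above. *Hist1h2ap* also differed between the Day 10 replicates, at 13.99 and 3.07 CPM, and its log2 fold change of -4.86 was -6.33 without replicate A and -4.14 without replicate B of that day. Histone mRNAs, which mostly lack a poly(A) tail, went down in the other cells as well, *Hist1h2ap* from a mean of 698 to 39.5 CPM.

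Among the factors, *Sox9* stood at 418 and 420 CPM on Day 7 and 445 and 436 CPM on Day 10 (log2 fold change 0.02, standard error 0.05, not past the test), whereas *Sox5* fell from 85.3 and 81.3 CPM to 47.9 CPM in both replicates (-0.85, edgeR adjusted p = 8.4e-09). *Runx3* (0.95), *Mef2c* (0.76) and *Runx2* (0.74) rose. Of the whole list of 13 factors 5 rose and 5 fell. Of 14 fibrous genes 10 rose and 2 fell, and of 8 contractile genes 6 rose, while 21.8% of all genes rose and 22.2% fell. Of 8 joint genes 1 rose and 4 fell, and of 8 macrophage and osteoclast genes 4 rose and 0 fell. Of 5 tested tendon genes 1 rose and 1 fell, and of 4 tested muscle genes 1 fell. *Col1a1* rose to 623 and 613 CPM (0.73, edgeR adjusted p = 8.6e-07) and *Acta2*, smooth muscle actin, to 367 and 548 CPM from 216 and 270 CPM (0.86, edgeR adjusted p = 0.00016). Sums in the other cells rose too, the fibrous genes from 9445 and 8813 CPM to 13452 and 12342 CPM. Contractile genes went there from 8998 and 9098 CPM to 11254 and 11602 CPM. Macrophage and osteoclast genes went there from 67.1 and 88.6 CPM to 179 and 241 CPM. In the chondrocytes that last list went from 26.9 and 26.7 CPM to 36.0 and 43.7 CPM. Whether RNA of the other cells adds to the chondrocyte values was not tested. Of 11 dissociation genes 9 rose and 1 fell. Those values move with the changes above, and their part in them was not tested.

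**Figure D5:**
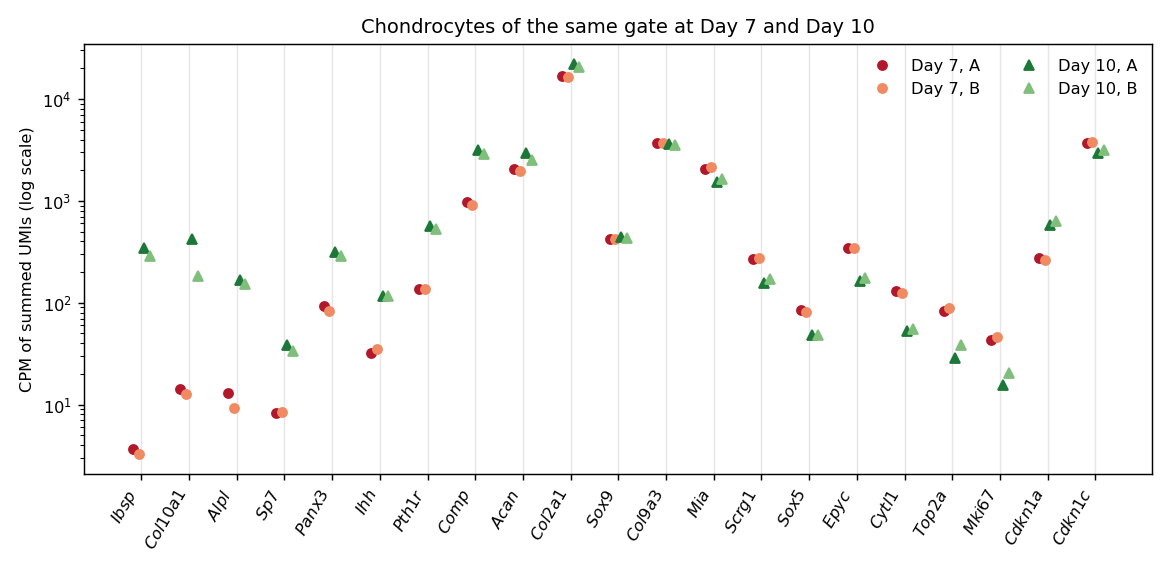
Level in CPM of summed UMIs (log scale) of 21 genes in gated chondrocytes, circles for Day 7 and triangles for Day 10, darker shade for replicate A. Ibsp rises from 3.70 and 3.24 to 344 and 288 CPM, Sox9 keeps its level near 418 to 445 CPM, and Epyc, Cytl1 and Top2a fall.

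The change from Day 7 to Day 10 in the difference between the chondrocytes and the other cells of their library was fitted as one term (edgeR's quasi-likelihood test over 17353 genes, 13.6% with a more positive contrast at Day 10 and 21.7% with a more negative one). The 2365 more positive and 3762 more negative genes were 1370 and 1960 with DESeq2, and the more negative ones 2205 without Day 7 replicate B. The gate chose the chondrocytes of both days, many cartilage genes climbed with the gate share, and the median gate share was 0.587% and 0.591% at Day 7 and 0.661% and 0.679% at Day 10, so counts of cartilage genes are not drawn from this fit and the values of *Mia* and *Sox9* are given as a description. *Mia* fell in the chondrocytes, from 2079 and 2156 to 1547 and 1652 CPM, and stood at 380 and 379 CPM in the other cells at Day 7 and 108 and 104 CPM at Day 10, so that the difference between the classes grew by 1.32 on the log2 scale (standard error 0.05). For *Sox9*, whose change in the chondrocytes did not pass the test, the other cells went from 207 and 200 CPM to 130 and 116 CPM (difference 0.68). Cell cycle genes had a more negative contrast at Day 10, 18 of 20, with *Top2a* at 94.2 and 109 CPM in the other cells of that day (difference -0.81, edgeR adjusted p = 9.7e-06). The make-up of the other cells was not held fixed between the days.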

How the data were processed

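Libraries of DID cultures were made with the 10x Genomics 3' kit (version 3.1). The authors aligned the reads to GRCm38 with STAR in Cell Ranger 6.1.2 (per the labels), and the deposited matrices hold raw UMI counts per gene and barcode, 1 library per matrix, with no normalization and no cell annotation. Cells were filtered and gated as stated above. UMI counts were summed per library and class and scaled to CPM, log2 ratios at Day 7 were taken on CPM + 1, and a gene was counted at 2-fold in both replicates with at least 10 CPM in the higher class. Sums were tested with edgeR 4.0.16 (filterByExpr, TMM factors, quasi-likelihood test, Benjamini-Hochberg, adjusted p under 0.05) in R 4.3.3. The unit is the library, n = 2 per day. The Day 10 against Day 7 fit had 2 residual degrees of freedom and TMM factors from 0.971 to 1.02. Total UMIs of the filtered cells ranged from 166797398 to 253858740 per library. Thinning drew 3000 UMIs per cell without replacement. Identifiers of 305 listed or named genes were looked up in GENCODE M21, and 305 matched. DESeq2 1.42.0 was an alternative, and other steps ran in scipy 1.17.1, pandas 2.3.3 and numpy 2.4.6 under Python 3.11.15.

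The cells, gene lists and tests were chosen with earlier results of these data known. Genes named are the 4 markers, the listed genes, and those with the largest differences. The last were 12 each way at Day 7 from 100 CPM and 10 each way for Day 10 against Day 7 from 50 CPM. For *Ihh* they were 10 each way from 20 CPM. For the change in contrast they were 5 each way from 50 CPM in the chondrocytes. Replicates of the 2 groups must not overlap for the Day 10 and *Ihh* comparisons, and 1 gene that the rule names is not reported here. The labels do not say whether a replicate letter links cultures across days. The correlation of replicate A's deviations from its day mean was -0.03 between Day 7 and Day 10, which cannot settle this. The main Day 10 fit has no replicate term. Alternatives changed the gate, the cell filter, the scaling, the low-count limit, the tool, the pairing and the replicates.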

Additional observations from a re-analysis of the deposited data

Results flagged for a closer look

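In 10 genes the change from Day 7 to Day 10 differed most between the chondrocytes and the other cells of the same libraries, by a fit of that difference (edgeR's quasi-likelihood test with Benjamini-Hochberg adjustment). The gate chose the chondrocytes of both days, and its median share was higher at Day 10. Values are log2 differences of the 2 changes, and means are over 2 replicates. *Col10a1* changed by 3.50 more in the chondrocytes, from a mean of 13.6 to 305 CPM, against 38.2 to 64.6 CPM in the other cells. At Day 10 it climbed with the gate share, from 175 and 101 CPM in the lowest class to 783 and 284 CPM in the highest. At Day 7 the same classes held 11.1 and 15.2 CPM and 15.6 and 9.57 CPM. The difference for *Col10a1* is thus a description, and the part of the gate in it was not tested. The Day 10 replicates of *Col10a1* were far apart, at 427 and 183 CPM, and its change in the chondrocytes alone was 4.44, but 3.71 without Day 10 replicate A and 2.03 without cells that had 0.1% or more of their UMIs on it. The last value is a description, since those cells were chosen on *Col10a1* itself. *Wnt4*, a WNT ligand, changed by 2.48 more (adjusted p = 5.7e-10), since it rose from 22.4 to 58.2 CPM in the chondrocytes and went from 14.7 to 6.31 CPM in the other cells. *Serinc5*, a membrane protein, changed by 1.93 more (adjusted p = 3.3e-09), from 47.6 to 158 CPM against 19.0 to 15.2 CPM.

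*Rflna*, a filamin-binding protein, changed by 1.86 more (adjusted p = 5.1e-09), mainly through the other cells, where it went from 56.2 to 16.8 CPM, against 120 to 141 CPM in the chondrocytes. *Alpl* changed by 1.84 more (adjusted p = 9.3e-07), from 11.2 to 159 CPM against 20.2 to 74.7 CPM. In the other direction, *Mt1*, a metallothionein, had a difference of -1.44 (adjusted p = 1.3e-06), with 129 to 93.1 CPM in the chondrocytes and 105 to 190 CPM in the other cells. The division genes *Ube2c* (-1.26, adjusted p = 1.1e-06) and *Cdk1* (-1.24, adjusted p = 3.9e-07) fell in the chondrocytes, to 32.3 and 26.2 CPM, and stood at 125 and 82.2 CPM in the other cells of Day 10. *Ptx3*, a secreted pentraxin, had -1.04 (adjusted p = 2.2e-08) and *Crip1*, a small LIM protein, -1.02 (adjusted p = 6.0e-08).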

How the results depend on the processing

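The share of chondrocytes in replicates A and B was 36.1% and 33.1% at a gate of 0.2%, 19.8% and 17.9% at 0.5%, 33.0% and 30.1% with *Matn1* alone, 21.4% and 20.6% with *Snorc* alone, 34.4% and 32.5% from 6000 UMIs and 22.0% and 21.3% with the cell limits of the study. At Day 7, counts higher and lower were 318 and 572 with TMM factors and 106 and 444 with a pseudocount of 10 CPM, and 1489 genes were lower with no minimum CPM. Single Day 7 ratios of the listed and named genes moved too. With TMM factors 206 moved by more than the standard deviation of the 2 replicates, and 5 did not. These counts were 172 and 39 with each cell weighted alike, and 50 and 161 with the cell limits of the study. The Day 10 against Day 7 counts (3332 and 3390) stayed within 1.5 times under every alternative run, with 3509 and 3575 under the replicate block and between 2404 and 2958 higher and 2443 and 2950 lower without 1 library. The change in contrast gave 1370 and 1960 genes with DESeq2, 1548 and 2463 against other cells free of *Matn1* and *Snorc* UMIs, 1782 and 2764 with no replicate block, and from 1761 to 2154 more positive and 2205 (without Day 7 replicate B) to 3432 more negative without 1 library.

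The *Ihh* comparison was the least stable. Its counts higher and lower were 616 and 449 at a gate of 0.2%, 188 and 159 at 0.5%, 128 and 87 with DESeq2, 150 and 135 with no replicate block, 178 and 177 without the deepest 10% of cells, and 1486 and 1307 with *Ihh* taken from all UMIs of a cell, a class that follows depth. Without 1 Day 7 replicate they were 46 to 72 and 57 to 82, and 739 genes were lower with no count filter. With all UMIs, *Acta2* (0.48), *Hist1h2ap* (0.022), *Ptch1* (-0.19), *Rrm2* (0.34) and *Thbs4* (0.68) turned direction. Between the days, *Actc1* (0.0066 without the deepest cells), *Bmp4* (-0.27 without Day 10 replicate B, up to 0.28 without another library) and *Sfrp2* (0.10 at a gate of 0.5%) did. In each case the cause was not tested. With 2 cultures a day, small changes of low genes are not resolved.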
